A study of Sus scrofa domesticus with 2 samples.

Results

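The caveolar coat genes described here were CAV1, CAV2, CAVIN1, CAVIN2, CAVIN3 and EHD2. They were chosen by name, and all 6 were among the 22804 genes counted. The cells came from cultures of pig endothelial cells (ECs), which were set up after collagenase digestion of the aorta or of a lung and were grown in the same medium, DMEM with fetal calf serum. No further treatment or genotype was given for either culture. Single cells were measured with the droplet-based 10x Genomics kit for RNA 3′ ends (v3 chemistry), with 1 library per tissue, so the values below carry counting error only and no replicate error. The methods describe hybrid pigs (Landrace, Large White and Duroc) from a slaughterhouse as the source of scRNA-seq tissues and do not say whether the cultures came from them. The number of pigs and the passage were not stated, and a difference between the libraries cannot be told apart from a difference between cultures.

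Caveolae are flask-shaped pits of the plasma membrane that are abundant in endothelium, smooth muscle and fibroblasts. Caveolins insert into the inner leaflet and oligomerise, cavins form a second coat around the caveolin layer, and the ATPase EHD2 sits at the neck of the pit and holds it at the surface. CAVIN1 is needed for caveolae in all tissues, whereas CAVIN2 is known for shaping caveolae in endothelium.

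The aorta library held 1185 cell barcodes and 46080859 UMIs (unique molecular identifiers, each of which marks 1 captured RNA molecule), and the lung library held 5946 barcodes and 57213236 UMIs. The libraries shared 5 barcode sequences (0.422% of the aorta barcodes). The limits of the methods, more than 200 and fewer than 5000 genes and under 30% mitochondrial UMIs, kept 5683 lung cells with a median of 9453 UMIs. In the aorta they kept 246 cells with a median of 4691 UMIs, of which 110 had under 1% mitochondrial UMIs, and they took out 709 deeper cells that passed the other limits. Aorta values are therefore given within these limits and also for 955 cells without the upper limit on genes (median 52080 UMIs).

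Cells fell into classes named from marker lists, with the 6 genes kept out of the clustering. In the lung, 4932 cells were endothelial-like, 333 collagen-high (raised COL1A1 and COL1A2), 89 immune-like and 329 unnamed. The aorta held 159 endothelial-like, 66 EndMT-like (raised ACTA2 and TAGLN) and 21 collagen-high cells within the limits, and 632, 64 and 142 such cells without the upper limit, where 117 more were unnamed. Of the 159 cells, 72 formed a cluster with medians of 2379.5 UMIs and 0.213% mitochondrial UMIs, which kept 7 of 11 endothelial markers. Without the upper limit, a cluster of 76 cells with 0.246% mitochondrial UMIs kept 8 of 11 markers and was among the unnamed. EndMT stands for endothelial-to-mesenchymal transition, and in the cells so named mitochondrial genes made up 0.0987% of the UMIs at the median. All 13 endothelial markers were detected in the endothelial-like lung class, but VWF was at 0 UMIs in the aorta class within the limits.

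Genomic places were read from the RefSeq annotation of Sscrofa11.1, the build of the counts. CAV1 lay on the minus strand at chr18:29648120-29682451 with 3 to 4 exons per transcript, and CAV2 on the same strand at chr18:29699012-29707277 with 3 exons. The gap between them was 16560 bases and held 0 other annotated genes. CAVIN1 was at chr12:20372476-20390250 on the plus strand, CAVIN2 at chr15:96476675-96490231 on the minus strand and CAVIN3 at chr9:3378144-3379851 on the plus strand, each with 2 exons. EHD2 was at chr6:53423489-53442007 on the plus strand with 5 to 6 exons.

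The 250 bases before the annotated start are shown for CAV1 and CAVIN2, whose levels ran most closely together across clusters (below), and for CAV2, the neighbour of CAV1. They are chr18:29682452-29682701, chr15:96490232-96490481 and chr18:29707278-29707527, all written 5′ to 3′ on the minus strand. Capitals mark the GC box core GGGCGG, the ETS core CGGAAG and the TATA box TATAAA, read on both strands.
CAV1: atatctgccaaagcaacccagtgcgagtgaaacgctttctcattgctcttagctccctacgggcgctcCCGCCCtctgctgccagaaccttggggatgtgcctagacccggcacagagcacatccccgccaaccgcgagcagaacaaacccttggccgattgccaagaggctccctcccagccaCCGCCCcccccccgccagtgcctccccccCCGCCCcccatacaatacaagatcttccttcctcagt
CAVIN2: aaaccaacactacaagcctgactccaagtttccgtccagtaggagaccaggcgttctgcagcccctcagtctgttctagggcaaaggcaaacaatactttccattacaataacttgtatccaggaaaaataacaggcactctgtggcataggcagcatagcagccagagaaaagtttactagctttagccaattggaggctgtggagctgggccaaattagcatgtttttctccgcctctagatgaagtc
CAV2: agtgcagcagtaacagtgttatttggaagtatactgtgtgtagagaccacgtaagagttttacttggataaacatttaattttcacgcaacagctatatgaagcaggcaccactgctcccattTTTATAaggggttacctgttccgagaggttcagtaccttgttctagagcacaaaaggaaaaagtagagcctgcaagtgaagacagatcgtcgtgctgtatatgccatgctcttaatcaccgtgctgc

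The GC box core was found 3 times before CAV1 and 5 times before CAVIN3, and 0 times before each of the other 4 genes. The TATA box letters were found once, before CAV2, and the ETS core before none of the 6. Among windows of the same length at 19559 protein-coding genes, 45.9% held the GC box core, 15.8% the ETS core and 9.77% the TATA box. GC content was 62.4% before CAV1, 70.0% before CAVIN3 and 46.8% before CAVIN2. These are matches of letters only.

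CAV1, the caveolin that builds the pit, was high in every class and higher in endothelial-like than in collagen-high cells. In the lung it stood at 1288 counts per 1000000 UMIs (CPM, from the summed UMIs of a class) in endothelial-like cells (exact Poisson 95% interval 1278 to 1298) and at 711 CPM in collagen-high cells (685 to 739). In the aorta it stood at 1010.3 and 354 CPM within the limits, and at 1314 and 585 CPM without the upper limit. The endothelial-like to collagen-high ratio was 1.81 (1.74 to 1.88) in the lung, 2.85 (2.23 to 3.71) in the aorta within the limits and 2.25 (2.18 to 2.31) without the upper limit. None of these intervals reached 1.

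CAV2, the partner that forms hetero-oligomers with CAV1, was higher in endothelial-like cells by a smaller ratio. Its levels were 193 and 122 CPM in endothelial-like and collagen-high lung cells, 255 and 172 CPM in those of the aorta within the limits, and 258 and 148 CPM without the upper limit. The ratio was 1.58 (1.44 to 1.74), 1.48 (1.03 to 2.20) and 1.74 (1.64 to 1.85) in that order.

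CAVIN1, the cavin that every caveola needs, was at 229.9 and 168 CPM in endothelial-like and collagen-high lung cells, at 340.5 and 263 CPM in the aorta within the limits and at 275 and 170.5 CPM without the upper limit. The ratio was 1.37 (1.26 to 1.48) in the lung and 1.61 (1.53 to 1.71) in the aorta without the upper limit. Within the limits the aorta ratio of 1.29 had an interval from 0.963 to 1.78, which held 1.

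CAVIN2 was the member that set the classes apart. Lung endothelial-like cells had 186 CPM (183 to 190.2), whereas lung collagen-high cells had 17.4 CPM (13.5 to 22.2) from 66 UMIs, a ratio of 10.7 (8.40 to 13.8). In the aorta within the limits it was at 368 against 16.1 CPM, a ratio of 22.8 (7.77 to 111) that rests on 3 UMIs in 21 collagen-high cells. Without the upper limit it was at 441 against 4.82 CPM (3.47 to 6.51, from 42 UMIs), a ratio of 91.5 (67.7 to 127). When the 394 lung cells with the highest doublet scores were left out, the lung level in collagen-high cells was 7.04 CPM and the ratio 26.5. These scores came from a run of the doublet caller Scrublet that was taken not to have worked, so the cells left out are not shown to be doublets.

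The CAVIN2 UMIs in collagen-high cells stood beside those of PECAM1, the endothelial junction protein. The lung collagen-high level of CAVIN2 was 9.34% of the endothelial-like level, where PECAM1 was at 8.91% and the median of 10 endothelial markers at 12.1%. These 10 markers ran from 8.31% to 227%, so not all were lower in collagen-high cells. In the aorta without the upper limit CAVIN2 was at 1.09%, PECAM1 at 1.10% and the median of 11 markers at 2.07%, with a range from 0.378% to 126%. The 66 lung UMIs came from 42 of 333 collagen-high cells with a median depth of 16214.5 UMIs. PECAM1 was detected in 59.5% of these 42 cells (Clopper-Pearson 95% interval 43.3 to 74.4%) and in 32.0% of the 291 cells without CAVIN2 (26.6 to 37.7%, median depth 10502 UMIs). Among aorta cells without the upper limit it was detected in 57.6% of 33 collagen-high cells with CAVIN2 (39.2 to 74.5%, median depth 73673 UMIs) and in 44.0% of 109 without (34.5 to 53.9%, 58922 UMIs), and these intervals overlap. Cells with 10 or more PECAM1 UMIs numbered 12 of the 42 and 10 of the 291 in the lung, and 0 in both aorta groups. The part that free RNA or doublets have in these UMIs was not tested.

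CAVIN3, which binds CAVIN1 and links caveolae to signalling proteins, differed little between the classes. It was at 189.8 and 161 CPM in endothelial-like and collagen-high lung cells, at 124 and 118 CPM in the aorta within the limits and at 177 and 181 CPM without the upper limit. The ratio was 1.18 (1.09 to 1.28), 1.05 (0.671 to 1.72) and 0.974 (0.922 to 1.03), so that the interval excluded 1 in the lung alone.

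EHD2, the ATPase of the neck, had no interval that excluded 1 in these comparisons. Its levels were 200.1 and 211 CPM in endothelial-like and collagen-high lung cells, 207 and 231 CPM in the aorta within the limits, and 190.0 and 189 CPM without the upper limit. The ratio was 0.947 (0.881 to 1.02), 0.896 (0.648 to 1.27) and 1.01 (0.954 to 1.06).

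**Figure D1:**
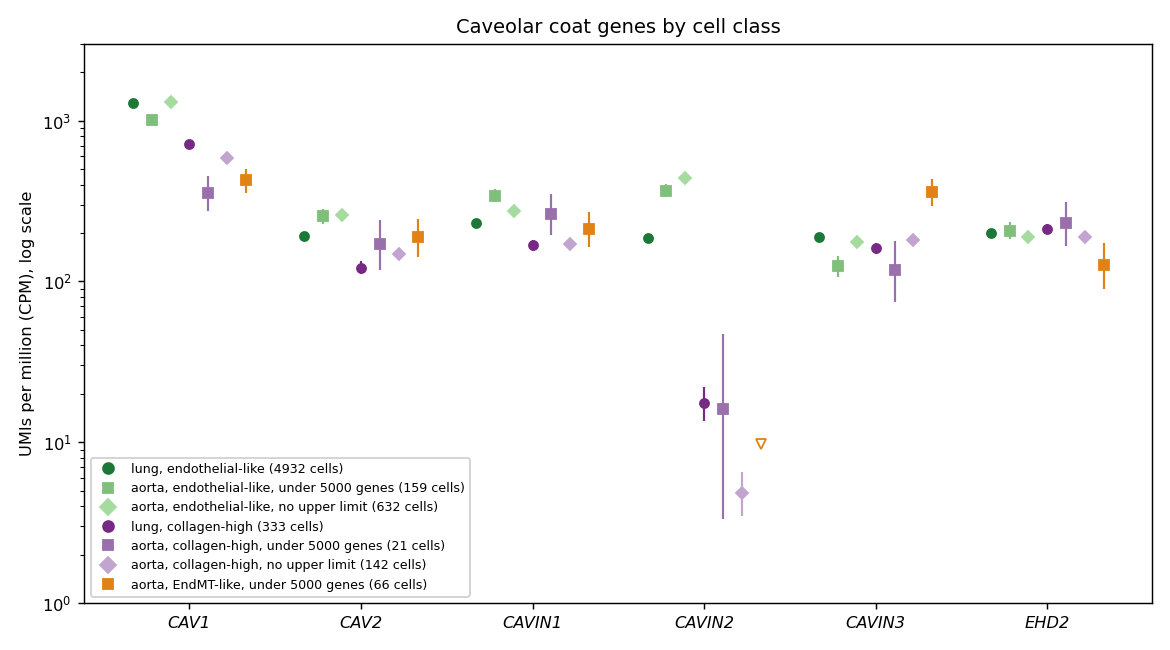
Level of each gene (CPM, log scale) in endothelial-like, collagen-high and EndMT-like cells, with bars for exact Poisson 95% intervals. The open triangle marks the level that 3 UMIs would give in EndMT-like cells, where CAVIN2 had 0 UMIs. CAVIN2 lies at 186 to 441 CPM in the endothelial-like classes and at 4.82 to 17.4 CPM in the collagen-high classes, while EHD2 stayed between 189 and 231 CPM in both.

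A gene was counted as higher in a class at a ratio of 2 or more with at least 50 CPM in either class. By this rule 1 of 6 members, CAVIN2, was higher in endothelial-like lung cells, where 10.6% of 3284 genes were, and 0 were higher in collagen-high cells (6.18% of all genes). In the aorta CAV1 and CAVIN2 were higher in endothelial-like cells within the limits (15.5% of 3688 genes) and without the upper limit (12.6% of 3553). In both aorta sets 0 members were higher in collagen-high cells, where 14.1% and 7.77% of all genes were. The median log2 ratio of the 6 members was 0.56 in the lung beside 0.03 over all genes, 0.47 beside -0.07 in the aorta within the limits, and 0.75 beside -0.05 without the upper limit. With 1 library per tissue no test was made.

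**Figure D2:**
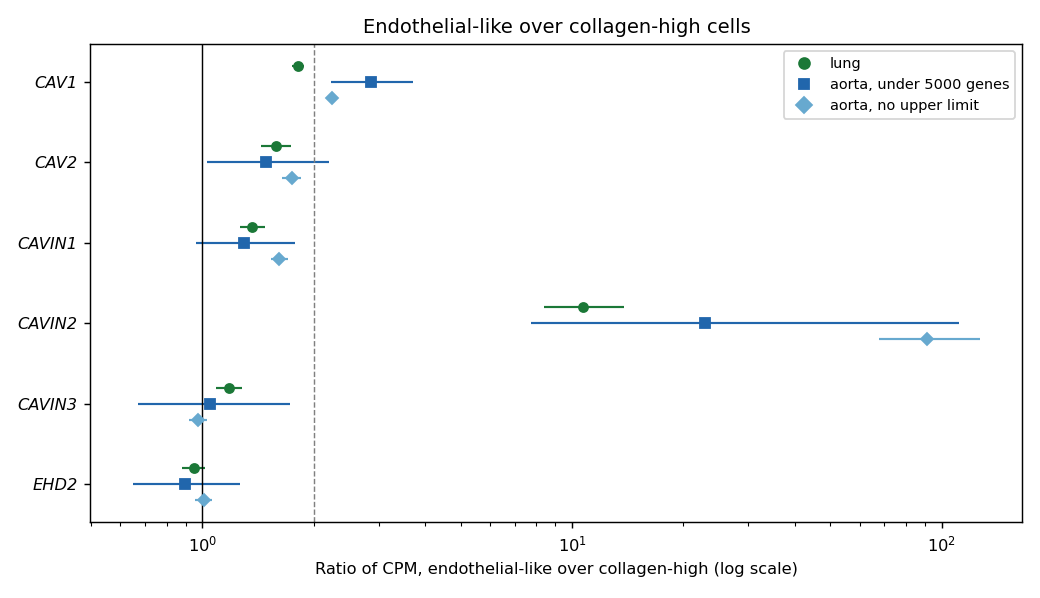
Ratio of CPM in endothelial-like over collagen-high cells for each gene (log scale, bars are exact 95% intervals of counting error, solid line at 1, dashed line at 2). CAVIN2 lies at 10.7, 22.8 and 91.5, CAV1 at 1.81 to 2.85, and EHD2 at 0.896 to 1.01.

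The number of cells with a UMI gave the same order. After each cell was thinned to 5200 UMIs, CAVIN2 was detected in 56.8% of 4812 endothelial-like lung cells (55.4 to 58.2%) and in 5.45% of 312 collagen-high lung cells (3.21 to 8.58%). Unthinned, these shares were 74.6% and 12.6% at median depths of 9579 and 10698 UMIs. In the aorta without the upper limit, 76.4% of 628 endothelial-like cells (72.9 to 79.7%) held CAVIN2 and 0 of 138 collagen-high cells did, which by a floor of 3 cells allows a share with a UMI of up to 2.17% at this depth. Unthinned, at medians of 55027.5 and 61722 UMIs, these were 97.8% and 23.2%. A share of 29.9% was found in 77 immune-like lung cells, where PECAM1 was detected in 96.1%, so that cluster is no class without endothelial RNA.

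For the shared members the thinned shares lay closer. CAV1 was detected in 99.3% of endothelial-like and 94.6% of collagen-high lung cells, CAVIN3 in 61.2% and 59.3%, and EHD2 in 63.1% and 65.7%. All 6 members were found together in 482 endothelial-like lung cells (10.0%) and in 1 collagen-high lung cell (0.321%). In the aorta without the upper limit, 89 endothelial-like cells (14.2%) and 0 collagen-high cells held all 6. CAV1 and CAVIN1 together, the pair on which the pit depends, were found in 67.6% of endothelial-like and 54.5% of collagen-high lung cells, and in 70.7% and 55.1% of those in the aorta.

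**Figure D3:**
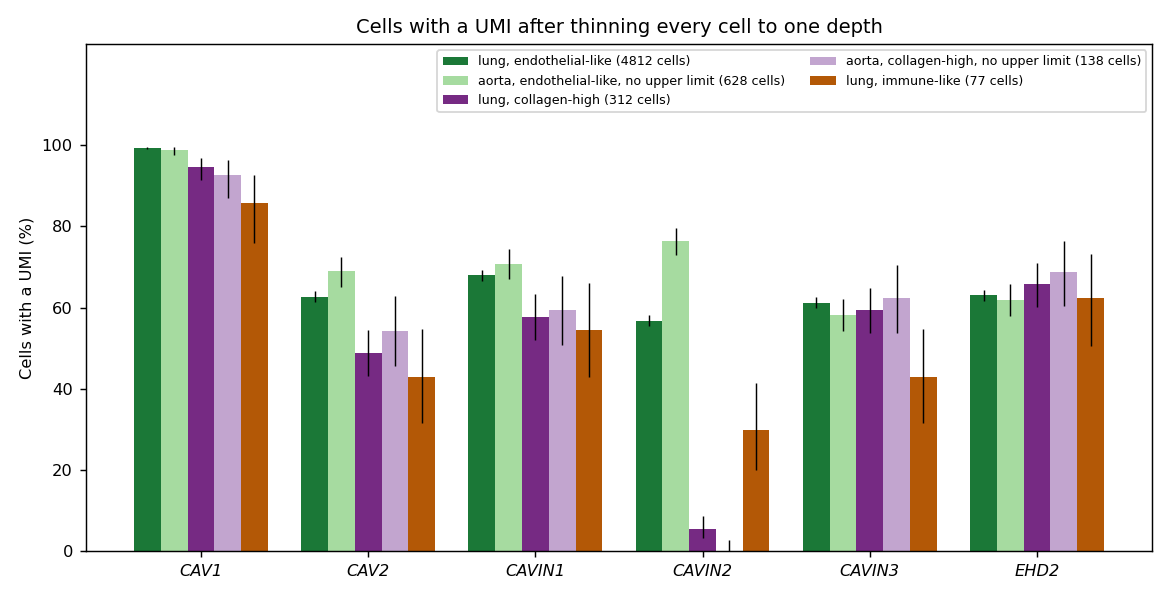
Cells with at least 1 UMI of each gene (%) after thinning to 5200 UMIs, by class, with Clopper-Pearson 95% intervals. CAVIN2 is in 56.8% and 76.4% of endothelial-like cells of lung and aorta, in 5.45% and 0 of collagen-high cells and in 29.9% of immune-like cells. EHD2 has overlapping intervals in all 5 classes.

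The EndMT-like cells of the aorta had 0 CAVIN2 UMIs and a lower level of CAV1, beside low levels of the endothelial markers. Within the limits PECAM1 was at 1.49% of its endothelial-like level, CDH5 at 2.97% and the median of 10 endothelial markers at 2.20%. Within the limits CAVIN2 had 0 UMIs in 66 cells and 367.6 CPM in endothelial-like cells, at least 37.8-fold higher against a floor of 3 UMIs (9.72 CPM). CAV1 was at 425 CPM against 1010.3 CPM (ratio 0.420, 0.349 to 0.503), and CAVIN3 at 360 against 124 CPM (ratio 2.90, 2.26 to 3.71). CAVIN1 at 211 CPM and EHD2 at 126 CPM had ratios of 0.619 and 0.612, and CAV2 at 188 CPM had a ratio of 0.738. By the same rule 2 of 6 members (33.3%) were lower in EndMT-like cells, the same share as over all genes (33.3% of 3509). CAVIN3 was the 1 member counted as higher (16.7%), where 17.6% of all genes were. These cells held few mitochondrial UMIs, and 6 of the 13 endothelial markers were at 0 UMIs. Whether this bears on the member levels was not tested. Without the upper limit CAV1 was at 427 CPM beside 1314 CPM in endothelial-like cells, and CAVIN2 again had 0 UMIs, at least 45.1-fold lower against a floor of 9.78 CPM. CAVIN3 was then at 349 against 177 CPM, a ratio of 1.97 (1.61 to 2.39) that is under the 2-fold rule. The same 2 members, CAV1 and CAVIN2, were counted as lower there (32.4% of 3483 genes) and 0 as higher (11.7%).

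Between the endothelial-like classes of the libraries, CAVIN2 differed most. It was lower in the lung than in the aorta, at a ratio of 0.507 (0.463 to 0.556) against cells within the limits and 0.423 (0.412 to 0.434) against the deeper set. CAVIN2 was counted as higher in the aorta in the second comparison only, in which 3.06% of 3231 genes were (5.38% of 3326 in the first). CAV2 had ratios of 0.757 and 0.749 and CAVIN1 of 0.675 and 0.835. CAV1 was at 1.27 within the limits and 0.980 against the deeper set, so its direction depended on the cells kept. CAVIN3 gave 1.53 and 1.07, and EHD2 0.968 and 1.05. In the first comparison 0 of 6 members were counted as higher in the lung (2.89% of all genes) or in the aorta, and in the second 0 were higher in the lung (1.11%).

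In collagen-high cells CAVIN2 was low in both libraries, at 17.4 CPM in the lung and 16.1 CPM in the aorta within the limits, a ratio of 1.08 (0.354 to 5.38) that rests on 3 aorta UMIs. CAV1 was at 711 CPM in the lung and 354 CPM in the aorta, a ratio of 2.01 (1.57 to 2.60), and was the 1 member counted as higher in the lung (9.47% of 3431 genes). With the deeper aorta cells, at 585 CPM, the ratio was 1.22 (1.16 to 1.28), and 0 members were counted in the lung (1.29% of 3188 genes) or in the aorta (2.16%). CAVIN2 was at 17.4 against 4.82 CPM, a ratio of 3.62 (2.42 to 5.46) that lies under the 50 CPM needed to be counted. Without the lung cells of highest doublet score, from the same Scrublet run, the lung level was 7.04 CPM, so the size of this difference depended on the cells kept.

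Within the endothelial-like class the members were more even. The lung held 7 endothelial-like clusters, and CAVIN2 ranged from 131 CPM (121 to 141) in cluster 5, led by histone genes, to 272 CPM (260.4 to 283) in cluster 2, led by SLPI, CRYAB and CFD, a ratio of 2.08 (1.91 to 2.26). The lowest and highest aorta clusters without the upper limit were at 322 CPM in cluster 2, led by ASPM, CDC20 and BUB1B, and 618 CPM in cluster 0, led by CCL5, SLPI and CFD, a ratio of 1.92. CAV1 ranged by 1.37 in the lung and 1.14 in the aorta, CAV2 by 1.34 and 1.28, and CAVIN3 by 1.10 and 1.17. Such a ratio reached 2 for 10.1% of 2906 lung genes and 11.4% of 3066 aorta genes, with medians of 1.35 and 1.34. Within the limits, the aorta class held 2 endothelial-like clusters, between which 38.3% of 3025 genes reached that ratio but 0 of 6 members did. CAVIN2 was 1.60 (1.52 to 1.68) times its level in the other endothelial-like cells in lung cluster 2 and 1.80 (1.75 to 1.86) times in aorta cluster 0. The leading genes of aorta cluster 0 also held RSAD2, IFIT1 and IFIT2, which with CCL5 were among those of lung cluster 8. There the CAVIN2 ratio was 0.954 (0.851 to 1.07).

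Among the endothelial-like lung clusters, those with raised G2M markers held the least CAVIN2. It was at 158 CPM in cluster 1 (CDC20, CCNB1), 145 CPM in cluster 4 (TOP2A, UBE2C) and 131 CPM in cluster 5, whose intervals with cluster 4 overlapped. Cluster 5 also had 4 raised S phase markers, so the lowest level was not in a cluster of raised G2M markers alone. The S phase markers summed to 850 CPM in cluster 5 and to 736 CPM in cluster 3. In cluster 3, with raised S phase but no raised G2M markers, CAVIN2 was at 199 CPM, and cluster 0 stood at 193.6 CPM with an overlapping interval. Cluster 8, led by interferon-induced genes, was at 178 CPM. In the aorta without the upper limit the cycling clusters 1 and 2 were at 361 and 322 CPM, and cluster 5, led by FOLR1 and without raised cycle markers, was at 335 CPM. The G2M markers summed to 2655 CPM in lung cluster 4 and to 75.9 CPM in lung cluster 2.

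**Figure D4:**
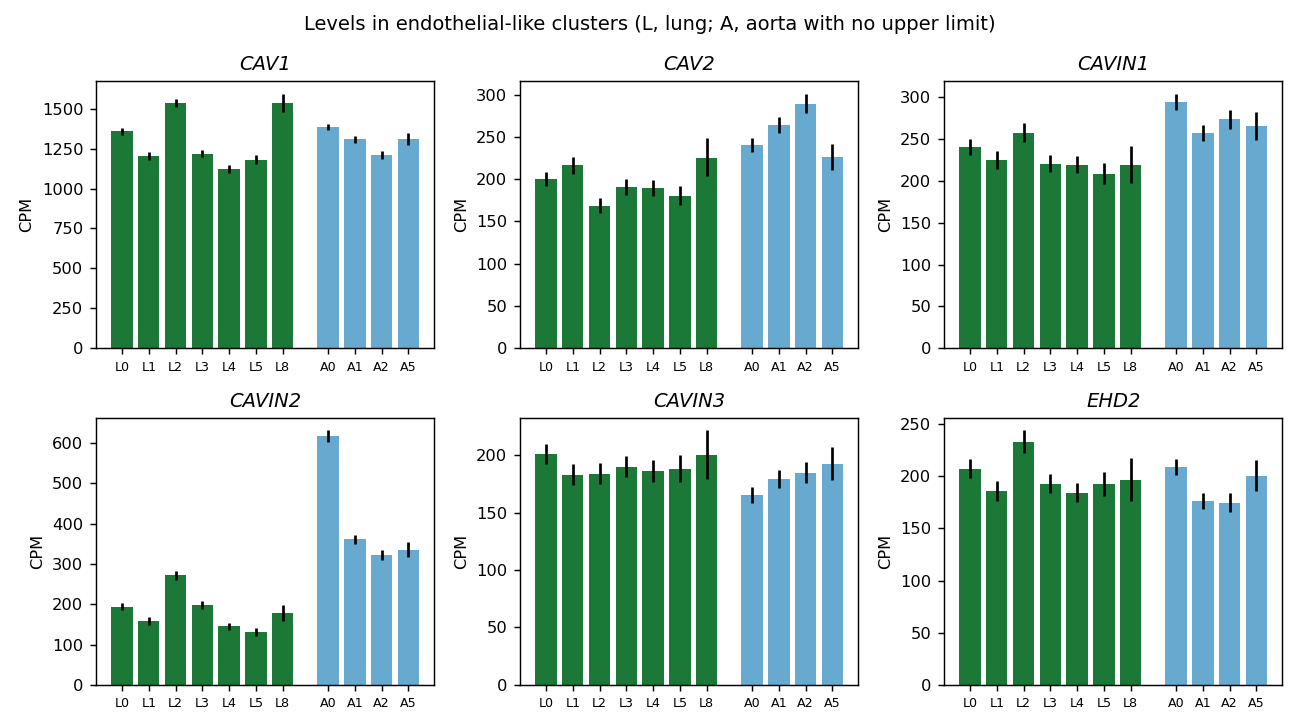
Level of each gene (CPM, axes from 0) in the 7 endothelial-like lung clusters (L) and the 4 aorta clusters without the upper limit (A), numbered as in the text, with exact Poisson 95% intervals. CAVIN2 is highest in L2 and A0, at 272 and 618 CPM, while CAVIN3 runs from 165 to 201 CPM.

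Among the 590 endothelial-like aorta cells with 20000 UMIs or more (thinned to that depth), the members differed in level and in the ratio of variance to mean over cells. CAVIN2 had a median of 7 UMIs per cell, ran from 1 at the 5th to 22.6 at the 95th percentile and was at 0 in 21 cells, with a variance 7.71 times its mean. CAV1 had a median of 24, from 10 to 49, with a variance 5.998 times its mean. The ratio was 1.74 for CAV2, 1.75 for CAVIN1, 1.26 for CAVIN3 and 1.31 for EHD2, where counting alone gives a ratio of 1. These values pool the clusters. Within cluster 0 the ratio was 8.90 for CAV1 and 8.81 for CAVIN2, and within cluster 2 it was 3.44 and 5.17. This ratio can rise with the level of a gene, and the levels were unlike. The mean was 26.2 UMIs for CAV1, 8.57 for CAVIN2 and 3.46 to 5.41 for the others. The ratio was not corrected for level, so it does not rank these genes by spread. Across cells the Spearman correlation was 0.240 for CAV1 with CAV2 and 0.259 within clusters, and the other 14 pairs lay between -0.03 and 0.13. The median over 3067 genes was 0.0048 for CAV1. In counts this sparse such values are descriptions only.

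Across the 16 clusters of both libraries, CAVIN2 had a Pearson correlation of 0.854 with CAV1 on the log2 scale of CPM plus 10. It was 0.556 with CAV2, 0.414 with CAVIN1, 0.174 with EHD2 and -0.164 with CAVIN3. With the deeper aorta cells, in 21 clusters, these were 0.810 for CAV1, 0.675 for CAV2, 0.771 for CAVIN1, 0.187 for EHD2 and -0.237 for CAVIN3. The gap between CAV1 and CAVIN1 thus depended on the cells kept. The genes most like CAVIN2 were ENPP6, PDGFRL and WISP2 at 0.951 to 0.956, and with the deeper aorta cells in 21 clusters CYB5A, NOS3 and ENPP6 at 0.959 to 0.967. For CAV1 they were RIT1, GNG11 and WWTR1 (0.952 to 0.961), for CAV2 C9orf3, UGDH and RAC1 (0.845 to 0.873), for CAVIN1 YWHAE, UGDH and LITAF (0.809 to 0.827), for CAVIN3 ITPA, RPL11 and U2AF1L5 (0.908 to 0.929), and for EHD2 FAM3A, RLIM and PRKX (0.891 to 0.968). The points share library, depth and cells of neighbouring states, so these are descriptions.

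Other genes of the pathway were read from lists. Of 10 neck and membrane-shaping partners, 5 reached 50 CPM in the lung comparison, and FLNA, the actin cross-linker that anchors caveolae, stood at 507 CPM in the endothelial-like class and at 1330 CPM in the collagen-high class, the only partner counted. EHD1, the paralogue of EHD2, was at 141 against 71.0 CPM, a ratio of 1.99. In the aorta without the upper limit FLNA was again the only one counted, at 417 against 1066 CPM. Within the limits FLNA was at 392 against 1272 CPM, and EHD1 was also counted, on the endothelial-like side, at 78.9 against 21.5 CPM (ratio 3.68, 1.39 to 13.7, from 4 collagen-high UMIs). NOS3, the endothelial nitric oxide synthase that CAV1 binds, was at 88.5 CPM in the endothelial-like aorta cells without the upper limit and had 2 UMIs in the collagen-high cells, a ratio of 386 (107 to 3187). Within the limits, with 21 collagen-high cells, the NOS3 ratio was at least 4.53, a lower bound set by the floor, and was also counted. A class with 0 UMIs was set to a floor of 3 UMIs in that ratio. In the lung NOS3 was at 47.4 against 4.49 CPM, below the 50 CPM needed to be counted. CAV3 and CAVIN4, the muscle members of the families, reached 50 CPM in none of the classes.

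The clathrin coat, another route of membrane uptake, gave a smaller median difference. Of its 9 genes, 7 were measured above 50 CPM, and 0 were counted in either direction in the lung or in the aorta without the upper limit. Within the limits 1 of 7 was counted in the aorta, CLTA, a clathrin light chain, at 325 against 134 CPM (ratio 2.42). Their median log2 ratio was 0.15 in the lung, 0.17 in the aorta within the limits and 0.19 without the upper limit. For the caveolar members it was 0.56, 0.47 and 0.75 in that order. FLOT1, a scaffold of flat membrane rafts, was at 156 against 76.0 CPM in the lung (ratio 2.05, 1.83 to 2.32) and at 104 against 47.0 CPM in the aorta without the upper limit (ratio 2.21). Of 3 listed raft scaffolds, 2 reached 50 CPM. In the lung 1 was counted on the endothelial-like side (10.6% of all genes). Without the upper limit 1 aorta scaffold was counted on each side (12.6% and 7.77%), with a median log2 ratio of 0.06. Within the limits 1 was counted on the endothelial-like side (15.5%). The endothelial markers, which had named the classes, were counted in 9 of 9 genes measured in the lung with a median log2 ratio of 3.08.

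The collagen-high lung cells held a mural-like cluster of 242 cells, led by ACTA2, COL6A1 and ACTG2, and a cluster of 91 cells with WT1, IGFBP5 and COL3A1 among its leading genes. CAV1 was at 755 CPM in the first and 587 CPM in the second (second over first 0.777, 0.707 to 0.852). EHD2 was at 190.5 and 271 CPM (1.42, 1.22 to 1.65), and CAVIN2 at 18.6 and 14.2 CPM with overlapping intervals. Between these clusters 0 members were counted in either direction (2.13% and 1.9% of 3049 genes).

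In the 89 immune-like lung cells, which had raised immune markers and kept 11 of 11 endothelial markers, EHD2 was at 190.1 CPM beside 200.1 CPM in endothelial-like cells, and CAV2 at 108 beside 193 CPM. CAVIN2 was at 105 CPM, 56.3% of the endothelial-like level, and PECAM1 at 71.1% of it. By the 2-fold rule 0 of 6 members were counted in either direction (5.43% and 5.97% of 3552 genes).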

How the data were processed

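Cultured endothelial cells of pig aorta and lung were measured in 1 scRNA-seq library each. The authors deposited counts, UMIs per gene and cell, made with Cell Ranger 3.0.2 on Sscrofa11.1 and not yet filtered or normalized (100% of the values were whole numbers). Here cells were kept by the limits of the methods. Each library was clustered with Seurat 5.3.0 in R 4.3.3 (10000 UMIs per cell, 2000 variable genes without the members and listed genes, 20 components, resolution 1). Classes were named from marker lists at 20 CPM, 2-fold over the rest, or 0.25 of the highest cluster for endothelial markers, thresholds that were set after the pooled marker levels had been seen. A depth rule also left clusters unnamed. It applied where the median UMIs lay below the library median divided by 3 and no marker of the class was among the 10 leading genes. The members and lists were chosen with earlier results of these data known. UMIs were summed per class and given as CPM with exact Poisson intervals of counting error only, and ratios with exact binomial intervals (Python 3.11.15, scipy 1.17.1). Thinned cells held 5200 or 20000 UMIs. The named genes were the 6 members, the related lists and, for each member, the 3 genes with the highest Pearson correlation over clusters. Scrublet (scanpy 1.11.5) called 1 aorta and 5 lung cells (0.088%), which was taken to mean that it had not worked, and no call was used. Its scores were still used in 1 alternative, which left out the 394 lung and 13 aorta cells that scored highest. The pooled caller was tested on simulated data. Of the listed genes, 5 were not analysed here. Sequences and gene places came from RefSeq by symbol, while the counts rest on Ensembl models.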

Additional observations from a re-analysis of the deposited data

How the results depend on the processing

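The 6 counts of members were recomputed under 16 alternatives, 1 of them, which left out the endothelial-like clusters with raised S or G2M markers, chosen after the data had been seen. Of 96 values, 84 stayed within 1.5 times the count given above and 12 moved. In the lung, members higher in endothelial-like cells numbered 3 at a ratio of 1.5, where 17.2% of all genes were. They numbered 2 without the cycling clusters (12.5% of all genes), where CAV1 joined CAVIN2. In the aorta they numbered 4 with thinned cells (14.5% of all genes), where 11 collagen-high cells were left. With 30 components, which merged the EndMT-like cells into the collagen-high class, 1 member (CAVIN3) was higher in collagen-high aorta cells (13.2% of all genes). CAVIN2 alone, 1 member, was counted as higher in aorta than lung endothelial-like cells without the upper limit (3.13% of all genes), under 10% mitochondrial UMIs (5.43%) and with 10 components (5.45%). It was also counted without mitochondrial genes in the denominator (5.94%), with every cell of equal weight (5.08%), with thinned cells (7.93%) and at a ratio of 1.5 (13.8%). CAVIN3, also 1 member, was counted as higher in the lung at that ratio (13.4%). The alternatives at a ratio of 1.5 and at 20 CPM changed only the counting rule, so the single-gene ratios under them were fixed. The aorta classes kept the same 159 and 21 cells and levels at resolution 0.8, at resolution 1.5 and without the cycling clusters. Not every single-gene ratio could therefore have moved. Of 288 such ratios, 268 stayed within the interval, 20 did not, and 0 of those counted as 2-fold changed direction. Among the others, 12 values of 5 ratios lay on the other side of 1, among them CAV1 for lung over aorta endothelial-like cells (0.977 without the upper limit), CAVIN3 for endothelial-like over collagen-high aorta cells (0.405 with 30 components) and EHD2 for the same classes in the lung (1.03 without the cycling clusters). The CAVIN2 ratio ran from 9.48 to 26.5 in the lung, the highest without the top Scrublet scores. In the aorta it ran from 13.4 to 91.5, and the causes were not tested. The depth of the aorta cells within the limits (a median of 4691 UMIs) and the 21 collagen-high cells limit the aorta values. No paired analysis was possible because each tissue has 1 library and no replicate numbers.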

Other observations

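A lung cluster of 289 cells without a name, with a median of 2975 UMIs and CA14, APH1A and ND4L among its leading genes, had CAVIN1 at 368 CPM (331 to 409) and CAV1 at 938 CPM (878 to 1002), against 229.9 and 1288 CPM in endothelial-like cells. In the aorta without the upper limit, an unnamed cluster of 41 cells with CA14, ND4L and APH1A among its leading genes and a median of 8833 UMIs had CAVIN1 at 383 CPM and CAV1 at 780 CPM (endothelial-like 275 and 1314 CPM). Both clusters kept 11 of 11 endothelial markers and were left without a name by the depth rule, so they are not shown to be another kind of cell. In both, CAVIN1 was higher and CAV1 lower than in the endothelial-like class, and depth moved with this. Its part in the result was not tested.

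CAVIN3 was high in part of the clusters with few mitochondrial UMIs. It was at 360 CPM in EndMT-like aorta cells (median 0.0987% mitochondrial UMIs) and at 319 CPM (192 to 499) in an unnamed lung cluster of 40 cells (0.171%), but at 178 CPM (126 to 244) in the endothelial-like aorta cluster with 0.213%. The part that mitochondrial content has in these levels was not tested.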
